A study of Mus musculus with 2 samples.

Results

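The Clcn5-hosted microRNA cluster is a group of hairpin genes in an intron of the X-linked gene Clcn5. It was examined here in the hearts of male B6CASTF1/J mice aged 10 days. The members were taken by name: a counted gene belonged to the cluster if its GENCODE M21 gene name was Mir188, Mir362, Mir500, Mir501, Mir532 or Mir660. Of these 6 names 5 matched a counted identifier, out of 2202 microRNA genes in all. Mir660 matched none and was not analysed here.

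The series holds 2 microRNA-seq libraries made from total heart RNA with an upper limit on fragment size. B6CASTF1/J is the first-generation hybrid of the C57BL/6J and CAST strains, and the labels name no treatment, transgene or other genotype. Both libraries form 1 group, numbered as biological replicates 1 and 2. The sample descriptions number the males differently, but both libraries carry the same donor identifier. It is therefore not settled here that they come from separate animals, and every SD below measures only the spread between these 2 libraries. A male carries a single X chromosome, and by the convention that names the mother's strain first that chromosome comes from C57BL/6J.

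The counts on the gene strand summed to 3748432 in replicate 1 and 6305782 in replicate 2. They are given as CPM, which is counts scaled to a library total of 1000000. A count of 0 allows a level of up to 3 counts, which is 0.8003 CPM in the first library and 0.476 CPM in the second. Intervals and limits cover counting error only. They treat each read as an independent molecule, which amplified reads are not, so they may be too narrow. Multimapping reads, which the counts leave out, were 36.8% of the reads of replicate 1 and 48.1% of those of replicate 2. Of the marker microRNAs, 6 of the 7 cardiac muscle genes were detected, and 4 of the 6 neural genes had no count in either library. Detection alone did not set cardiac muscle apart, since the 6 epithelial, 4 kidney, 2 smooth muscle and 2 red cell genes were all detected. The 1 hepatocyte gene, the 1 endothelial gene and 1 of the 2 skeletal muscle genes were detected too. Of the cardiac genes, Mir133a-1 had only 10 and 27 counts and Mir1a-1 13 and 19 in replicates 1 and 2.

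MicroRNAs are cut from hairpins in longer primary transcripts, first by Drosha in the nucleus and then by Dicer in the cytoplasm. A mature strand, from the 5′ arm (5p) or the 3′ arm (3p) of the hairpin, then guides Argonaute to messenger RNAs that pair with its seed. Hairpins that lie close together in a host intron can be cut from the same primary transcript, and yet accumulate to different levels because each is processed and degraded on its own. The host, Clcn5, encodes an endosomal chloride and proton exchanger best known from the kidney proximal tubule, where its loss causes Dent disease. In heart muscle cells miR-532-3p has been described as a repressor of the apoptosis inhibitor ARC and miR-188-3p as a repressor of the autophagy gene Atg7, and miR-501 is known from activated muscle stem cells.

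The 5 counted hairpins lie on the minus strand of chromosome X (mm10) within 10815 bases. In the direction of transcription Mir532 (ENSMUSG00000070139.1; chrX:7248402-7248497) comes first. It is followed after 345 bases by Mir188 (ENSMUSG00000065398.1; chrX:7247989-7248056) and after a further 5942 bases by Mir362 (ENSMUSG00000070100.1; chrX:7241982-7242046). Mir501 (ENSMUSG00000076251.1; chrX:7241243-7241351) lies 630 bases beyond Mir362, and Mir500 (ENSMUSG00000070108.2; chrX:7237683-7237774) another 3468 bases on. GENCODE M21 lists 5 transcripts of Clcn5, which together cover chrX:7153810-7319358. In 3 of them all 5 hairpins lie in the same intron of 103648 bases (chrX:7213011-7316658), which is intron 3 of 2 transcripts and intron 2 of the other. The remaining 2 transcripts start downstream of the hairpins, so that Mir500 lies 48969 bases and Mir532 59688 bases upstream of the protein-coding one. Of the hairpins none overlaps an annotated Clcn5 exon. The expression of Clcn5 itself was not measured here.

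The mature forms are shown because several members share a seed or other letters. RefSeq (GRCm38.p6) holds 9 mature forms for the 5 matched members, with both arms for 4 of them. For Mir532 it holds only the 3p form, so a 5p form of that hairpin is left out of the comparisons below. The lines give each form 5′ to 3′ in the order of transcription, with the seed, bases 2 to 8, in capitals.
miR-532-3p: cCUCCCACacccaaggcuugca
miR-188-5p: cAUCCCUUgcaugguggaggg
miR-188-3p: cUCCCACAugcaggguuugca
miR-362-5p: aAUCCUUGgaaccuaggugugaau
miR-362-3p: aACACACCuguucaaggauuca
miR-501-5p: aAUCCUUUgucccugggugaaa
miR-501-3p: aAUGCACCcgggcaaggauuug
miR-500-5p: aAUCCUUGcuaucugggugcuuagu
miR-500-3p: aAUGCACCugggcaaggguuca

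The 9 forms carry 7 different seeds. Mir501 and Mir500 share the seed AUGCACC of their 3p forms, and Mir362 and Mir500 share the seed AUCCUUG of their 5p forms. The letters AAUCCUU occur in the hairpins of Mir362, Mir501 and Mir500 and in 11 of all 2202 counted hairpins (0.4995%), searched on the transcribed strand only. AAUGCACC, the start of miR-501-3p and miR-500-3p, occurs in 3 of them (0.136%). The seed of miR-188-5p differs from those of the other listed 5p forms. Compared without gaps, miR-188-5p is identical to miR-362-5p at 11 of the 21 positions and to miR-501-5p and miR-500-5p at 10 each. These counts were not set against a background, and no 5p form of Mir532 was compared. Mir532 and Mir188, the pair that lies first, share the letters UCCCACA in their 3p forms. These are bases 2 to 8, the seed, in miR-188-3p, but bases 3 to 9 in miR-532-3p, so the 2 seeds are offset by a base. On the same strand UCCCACA occurs in 21 counted hairpins (0.954%).

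Of the listed forms the closest are the 3p forms of Mir501 and Mir500. Counted from the 5′ end, miR-501-3p and miR-500-3p are identical at 18 of 22 positions, and the changes from the former to the latter are C9U, A18G, U21C and G22A. Their hairpins, shown with the mature forms in capitals, share a run of 14 bases, which is the longest among the 10 pairs of members.
Mir501: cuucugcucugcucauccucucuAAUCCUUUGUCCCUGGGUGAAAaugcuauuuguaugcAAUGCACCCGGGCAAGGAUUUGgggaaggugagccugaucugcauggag
Mir500: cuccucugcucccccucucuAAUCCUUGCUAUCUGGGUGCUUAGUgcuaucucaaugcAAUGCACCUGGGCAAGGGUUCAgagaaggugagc

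None of the 9 mature forms occurs in the hairpin of another counted gene. The longest run that a member shares with a counted hairpin outside the cluster is 12 bases, for Mir532 and for Mir500. No member had a read on the opposite strand in either library. The counts are per hairpin, so the reads of the 5p and 3p arms cannot be told apart.

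All 5 matched members were detected, which means at least 10 counts in both libraries. Of all 2202 microRNA genes 15.4% passed that filter, and of the other 137 genes on chromosome X 28 did (20.4%). The cluster's counts summed to 2206 CPM in replicate 1 and to 1672 CPM in replicate 2, with a mean of 1939 ± 377 CPM (SD, n = 2, as for all SDs of levels below). This is 0.221% of the counts of replicate 1 (exact Clopper-Pearson 95% interval 0.216% to 0.225%) and 0.167% of those of replicate 2 (0.164% to 0.170%). Of the 28 other detected X-linked genes, each taken singly, 6 exceeded that mean of the sum and 7 exceeded the mean of Mir532 alone. The highest was Mir322 at 19589 CPM, and the median of the 28 single genes was 81.4 CPM.

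Mir532, the first hairpin of the cluster, carried most of its counts. It had 5986 counts in replicate 1 and 7544 in replicate 2, or 1597 and 1196 CPM, a mean of 1397 ± 283 CPM. By mean level it stood at place 62 of the 340 detected genes. Its share of the cluster was 72.4% in replicate 1 (exact Clopper-Pearson 95% interval 71.4% to 73.4%) and 71.5% in replicate 2 (70.7% to 72.4%). The leading share was thus close in the 2 libraries, with overlapping intervals. Without Mir532 the other 4 members summed to 609 CPM in replicate 1 and 476 CPM in replicate 2.

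Mir501 came second, with 1072 counts in replicate 1 and 1165 in replicate 2, or 286 and 185 CPM and a mean of 235 ± 71.6 CPM. It took 13.0% of the cluster in replicate 1 (interval 12.2% to 13.7%) and 11.0% in replicate 2 (10.5% to 11.7%). Its seed-sharing relative Mir500 had 564 and 623 counts, or 150.5 and 98.8 CPM and a mean of 125 ± 36.5 CPM. Mir500 took 6.82% of the cluster in replicate 1 (6.29% to 7.39%) and 5.91% in replicate 2 (5.47% to 6.38%). Both genes were thus higher in replicate 1 by CPM.

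Mir188, a neighbour of Mir532, was nearly level between the libraries by CPM. Its 508 counts in replicate 1 and 878 in replicate 2 correspond to 136 and 139 CPM, a mean of 137 ± 2.63 CPM. Its share of the cluster was 6.14% (5.64% to 6.68%) in replicate 1 and 8.33% (7.81% to 8.87%) in replicate 2. Mir362 was the least abundant member, with 138 counts in replicate 1 and 334 in replicate 2, or 36.8 and 53.0 CPM and a mean of 44.9 ± 11.4 CPM. It stood at place 194 of the detected genes, whose median level was 80.0 CPM. Its share was 1.67% (1.40% to 1.97%) in replicate 1 and 3.17% (2.84% to 3.52%) in replicate 2. The shares of Mir188, Mir362 and Mir501 have intervals that do not overlap between the libraries, and those of Mir532 and Mir500 do overlap. These shares were not set beside shares in other clusters. In the gene-by-gene comparison below, 72.1% of all detected genes differed between the libraries. Overlap does not show that a share was unchanged. The log2 ratios of Mir532 and Mir500 between the libraries differed by 0.19, with an exact 95% interval of 0.02 to 0.36 that leaves out 0.

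**Figure D1:**
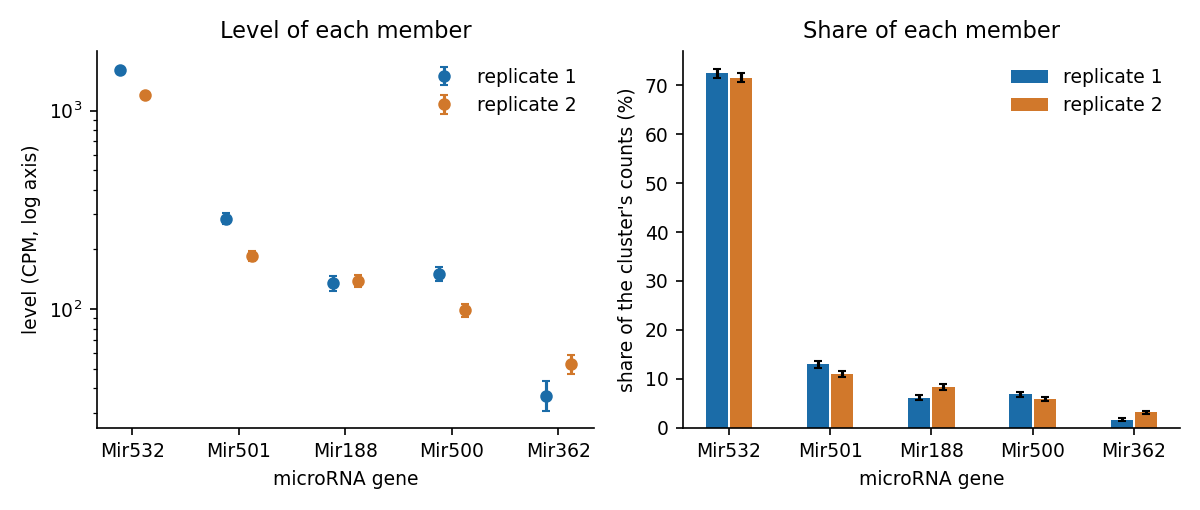
Level of each member in CPM on a log axis (left) and its share of the cluster's counts in percent (right), in replicate 1 (blue) and replicate 2 (orange), with exact 95% intervals for counting error. Mir532 is the highest in both libraries, at 1597 and 1196 CPM, and Mir362 the lowest, at 36.8 and 53.0 CPM.

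The order of mean levels was therefore Mir532, Mir501, Mir188, Mir500 and Mir362. Neighbours in that order were taken to differ beyond their spread where the log2 ratio of their CPM had the same sign in both libraries and its mean exceeded its SD. Mir532 exceeded Mir501 by a log2 ratio of 2.59 ± 0.15, which is 5.58-fold in replicate 1 and 6.48-fold in replicate 2. Mir501 exceeded Mir188 by 0.74 ± 0.47, and Mir500 exceeded Mir362 by 1.47 ± 0.80. Mir188 and Mir500 did not differ beyond their spread: Mir188 was lower than Mir500 in replicate 1 (log2 ratio -0.15) and higher in replicate 2 (0.49). Over all 10 pairs of members, 9 kept their order in both libraries. These orders were not tested over samples.

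A sequenced microRNA is read whole, so counts were not divided by length, but the hairpins differ in length from 65 bases in Mir362 to 109 in Mir501. Per 100 bases of hairpin Mir532 had 6235 counts in replicate 1 and 7858 in replicate 2, and the order of the 5 mean levels was the same. The step from Mir501 to Mir188 was then within the spread (log2 ratio 0.06 ± 0.47 per length), and that from Mir188 to Mir500 was beyond it (0.61 ± 0.46).

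The levels do not fall steadily along the intron. The highest member, Mir532, lies 345 bases from Mir188, which it exceeded 11.8-fold in replicate 1 and 8.59-fold in replicate 2. Mir362 and Mir501, 630 bases apart, differed by 7.77-fold in replicate 1 and 3.49-fold in replicate 2, with Mir501 higher. The 2 members that lie closest to each other on the chromosome therefore had levels further apart than Mir501 and Mir500, which lie 3468 bases apart and differed by 1.90-fold and 1.87-fold.

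**Figure D2:**
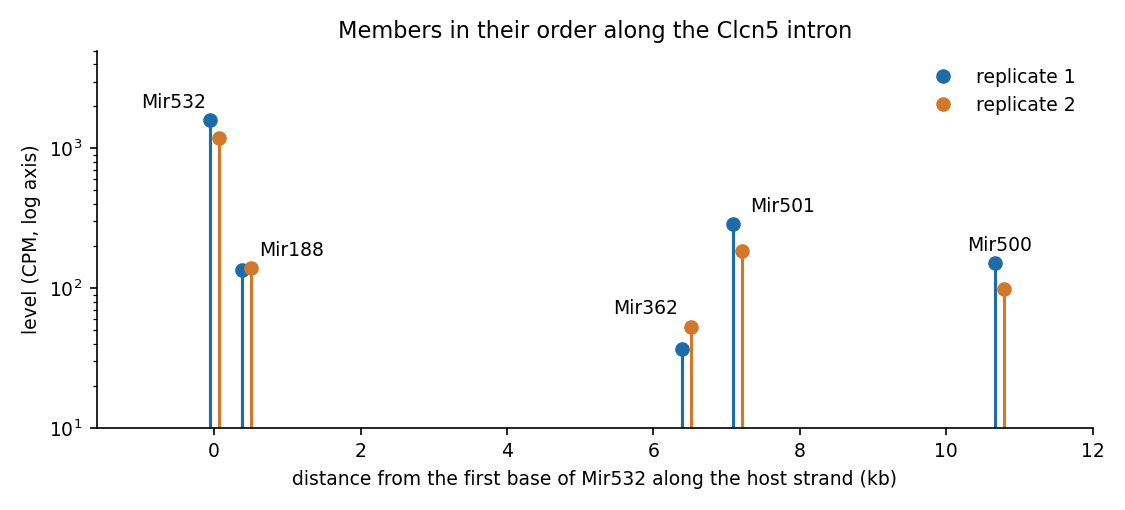
Level of each member in CPM (log axis) against its distance from the first base of Mir532 in kilobases along the host strand, for replicate 1 (blue) and replicate 2 (orange), whose points are drawn slightly apart. Mir532 and Mir188 stand together at the start and differ in level 11.8-fold in replicate 1 and 8.59-fold in replicate 2.

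The 2 libraries were then compared gene by gene. For each detected gene an exact binomial test, two-sided, asked whether its counts divided between the libraries as their TMM-scaled sizes did, with Benjamini-Hochberg adjustment over all 340 detected genes at 0.05. TMM is a scaling that assumes most genes to be level, and it moved the log2 ratios up by 0.14 against total counts. The test compares 2 libraries of the same group, holds counting error only and says nothing of a condition. Under it all 5 members differed between the libraries. So did 72.1% of the detected genes, and that share is the background for the members' count.

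Mir532, Mir501 and Mir500 were lower in replicate 2, as were 37.9% of the detected genes, and Mir188 and Mir362 were higher, as were 34.1%. Mir532 had a log2 ratio of replicate 2 over replicate 1 of -0.27 (exact 95% interval -0.32 to -0.22, adjusted p = 2.67e-27 by the exact binomial test). Mir501 had one of -0.49 (-0.61 to -0.37, exact binomial adjusted p = 5.18e-15) and Mir500 one of -0.46 (-0.63 to -0.30, exact binomial adjusted p = 8.15e-08). On the other side, Mir362 had a log2 ratio of 0.66 (0.38 to 0.96, exact binomial adjusted p = 5.68e-06). Mir188 had 0.18 (0.02 to 0.34, exact binomial adjusted p = 0.0348), and lost its call with total counts as the scaling (log2 ratio 0.038, adjusted p = 0.701) or with no filter on low counts (adjusted p = 0.0677).

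Of the detected genes, 26.5% had a smaller absolute ratio than Mir532, 17.4% a smaller one than Mir188 and 58.8% a smaller one than Mir362. None of the members differed by 2-fold or more, against 19.7% of the detected genes. The median log2 ratio of the 5 members was -0.27, beside -0.05 over all detected genes, and the median absolute ratio over all detected genes was 0.54. The summed cluster was 1.195-fold higher in replicate 1 (log2 ratio -0.26, exact 95% interval -0.30 to -0.22). Marker microRNAs of several cell types also differed in level between the libraries. The cardiac muscle list summed to 8318 CPM in replicate 1 and 12455 CPM in replicate 2, but its 3 most abundant genes did not differ in the same direction. Mir499 had 3678 CPM in replicate 1 and 7542 in replicate 2, Mir208b had 794 and 3444, and Mir208a had 3795 and 1362. The endothelial Mir126a had 88956 and 100563 CPM, and the 2 smooth muscle genes summed to 44790 and 53313 CPM. Of the 2 red cell genes, Mir451a had 9591 and 8251 CPM and Mir144 had 316 and 453 CPM. The 4 kidney genes summed to 102 and 129 CPM. Their part in the ratios of the cluster was not tested, and in whole tissue fewer cells of a type and less RNA per cell cannot be told apart.

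**Figure D3:**
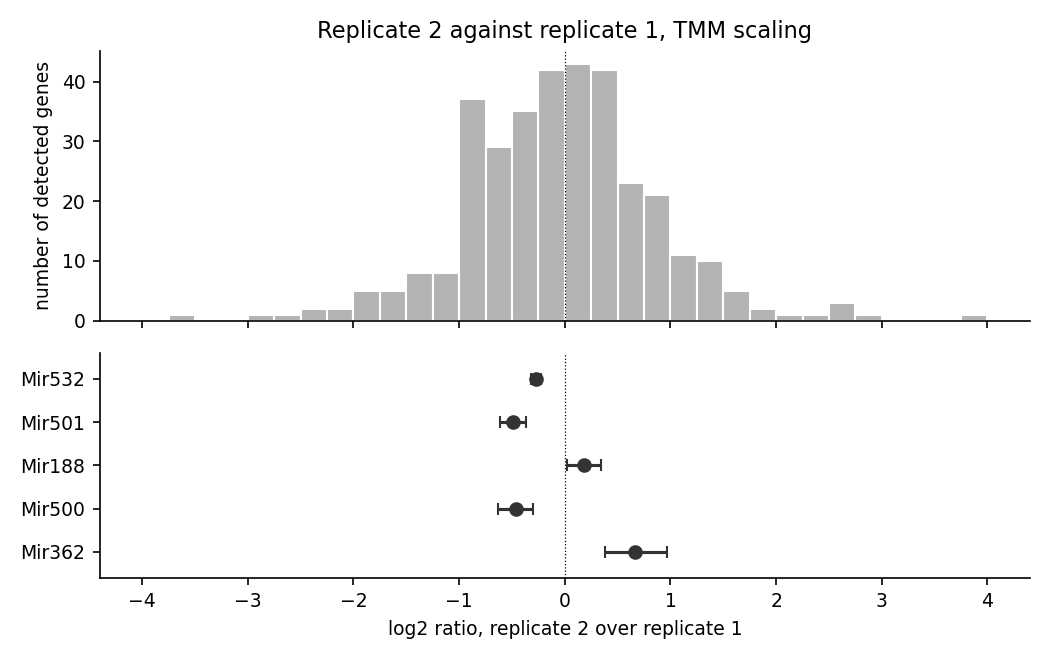
Distribution of the log2 ratio of replicate 2 over replicate 1 over the 340 detected genes (top, number of genes) and the ratio of each member with its exact 95% interval (bottom), after TMM scaling. Mir532, Mir501 and Mir500 lie left of 0 and Mir188 and Mir362 right of it, all within 1 unit of 0.

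The change of a pair's ratio between the libraries needs no scaling, since both genes share the library. The proportion of Mir501 to Mir500 changed least among the neighbours: their log2 ratios between the libraries differed by -0.02 (exact 95% interval -0.23 to 0.18). Mir362 and Mir501 parted most among the neighbours, by 1.16 (0.84 to 1.48). Mir532 and Mir188 parted by -0.46 (-0.62 to -0.29), and Mir188 and Mir362 by -0.49 (-0.82 to -0.15). The interval for Mir501 and Mir500 covers 0 and leaves room for a difference of up to 0.23 on the log2 scale.

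The same absolute difference was computed, after TMM scaling, for each of the 88 pairs of detected microRNA genes that are neighbours on a strand within 10 kb. The 84 pairs outside the cluster had a median of 0.57, with quartiles of 0.25 and 1.14. Mir500 and Mir501, at 0.02, took place 3 from the smallest, Mir188 and Mir532 place 38, Mir362 and Mir188 place 40, and Mir501 and Mir362, at 1.15, place 67. The 4 neighbour pairs of the cluster thus spread over much of the range that other neighbours show.

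The cluster was also set beside the other microRNA clusters, defined as genes on a strand with gaps of at most 10 kb and at least 3 detected genes. With the Clcn5-hosted cluster included there were 13, and the medians given here are over all 13. The SD of the log2 ratios was 0.49 over the 5 members, place 3 from the most even, beside a median of 0.58 over the clusters and an SD of 0.92 over all detected genes. Just more even was the cluster from Mir23a to Mir24-2 (SD 0.39, 3 genes), and just less even that from Gm22072 to Mir669h (SD 0.51, 7 detected genes). In levels the members spanned a log2 range of 4.96 from Mir362 to Mir532, place 6 of 13, beside a median range of 6.85. Clusters differ in size and depth, and they can differ in the multimapping reads that the counts leave out, which bears on the range of levels. These places are a description without a test.

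**Figure D4:**
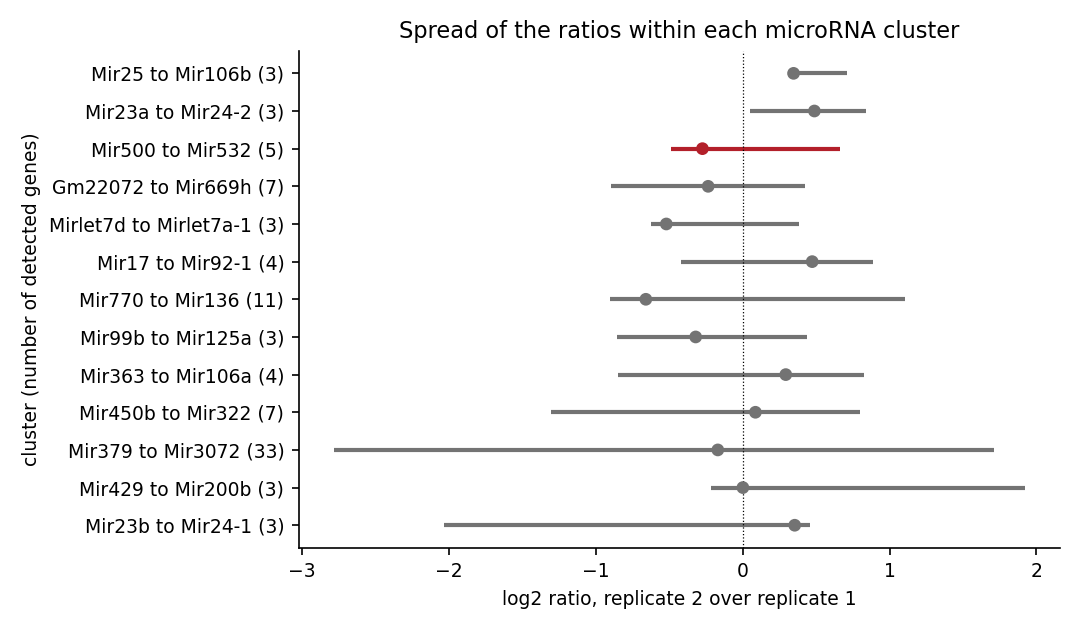
Range (bar) and median (point) of the log2 ratios of replicate 2 over replicate 1 within each of 13 microRNA clusters, ordered from the most even at the top to the least even by their SD, with the number of detected genes in brackets. The Clcn5-hosted cluster (red) is in place 3 and runs from -0.49 to 0.66.

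Over the 2 libraries, the detected gene outside the cluster with the levels most like the cluster's sum was Mir324, at 1841 CPM in replicate 1 and 1795 CPM in replicate 2. It was followed by Mir92-1 (2022 and 1372 CPM) and Mir320 (2203 and 1265 CPM), by Euclidean distance on the log2(CPM + 1) scale. The nearest gene to Mir532 was Mir155, a microRNA of activated leukocytes, at 1430 and 1191 CPM. Nearest to Mir501 was Mirlet7a-2 (284 and 206 CPM), to Mir188 Mir299a (135 and 159 CPM), and to Mir500 Mir669o (140.3 and 97.7 CPM). With 2 libraries this likeness is that of level and of a single ratio. The counts leave out multimapping reads, so a mature form that several hairpins share can be more abundant than its gene's CPM shows.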

How the data were processed

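Each library's table holds unnormalized counts of reads per microRNA hairpin, as deposited, on mm10 with GENCODE M21, per the deposited text beside the tables. Aligner and counting program: not given in the sources used here. Of the columns (both strands, gene strand, opposite strand, as inferred from the values) that for the gene strand was used. The 4 entries that name no gene stayed out of library sizes. Members were matched by GENCODE name, and all 2202 identifiers were annotated. Hairpins came from GENCODE M21 transcripts and mature forms from RefSeq.

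CPM used total counts. Ratios used TMM from edgeR 4.0.16, a prior of 0.5 counts and exact Clopper-Pearson 95% intervals, and the exact binomial test was run across all genes that reached 10 counts in both libraries. DESeq2 1.42.0 size factors, total counts, another prior, both-strand counts and no filter were alternatives. The comparison was also run on simulated counts with known changes, and the outcome is not reported here.

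The members and lists were chosen with earlier results of these data known. Named genes were the members, the nearest gene to each and the 3 nearest to the sum, genes that share a seed with a member, and the clusters next in order.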

Additional observations from a re-analysis of the deposited data

How the results depend on the processing

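No paired analysis was possible because the series has 1 group. Under every scaling tried (TMM, DESeq2 size factors and total counts) Mir532, Mir501 and Mir500 were lower and Mir362 higher in replicate 2, and each kept its call. With total counts the log2 ratio of Mir188 was 0.038 (adjusted p = 0.701) and its call was lost, as it was with no filter on low counts (log2 ratio 0.18, adjusted p = 0.0677), where more genes were tested. The log2 ratio of the summed cluster was -0.40 with total counts and -0.18 with DESeq2 size factors. Counts on both strands gave the members the same counts but the libraries smaller totals, so the CPM were 1913 for Mir532, 322 for Mir501, 188 for Mir188, 171 for Mir500, 61.7 for Mir362 and 2656 for the sum. Leaving out either library moved no level or share by more than its SD, as follows from a mean of 2. With neighbours joined within 50 kb the cluster took place 5 of 15, and within 3 kb no group of 3 members was left. The 138 counts of Mir362 in replicate 1 set the precision of its ratio.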

Other observations

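Beyond the cluster, 2 of the counted genes that could be searched carry a seed of a member. The search covered the 1018 counted gene names with a mature form in RefSeq, among them 307 of the 340 detected genes. A 5p form of Mir532 is not held there, so its seed was not searched. Mir329, an imprinted microRNA gene of chromosome 12, shares ACACACC with miR-362-3p, and Mir7061 shares AUCCCUU with miR-188-5p. Mir7061 had 4 counts in replicate 1 and 11 in replicate 2 and was not detected.

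Mir329 was also the detected gene whose levels were nearest to those of Mir362. It had 139 counts in replicate 1 and 351 in replicate 2, or 37.1 and 55.7 CPM, beside 138 and 334 counts, or 36.8 and 53.0 CPM, for Mir362. Its log2 ratio of replicate 2 over replicate 1 was 0.73 (exact 95% interval 0.44 to 1.02), beside 0.66 (0.38 to 0.96) for Mir362. The forms share their first 8 bases, and the longest run common to the hairpins is 8 bases. Both are shown 5′ to 3′ with the seed in capitals.
miR-362-3p: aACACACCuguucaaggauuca
miR-329-3p: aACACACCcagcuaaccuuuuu
The match in level was noticed in these 2 libraries and was not tested in others.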
